A study of Mus musculus with 4 samples.

Results

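Prostanoids are short-lived lipid signals made from arachidonic acid. The cyclooxygenases turn arachidonic acid into prostaglandin H2, terminal synthases turn that into prostaglandins E2, D2, I2 (prostacyclin) or thromboxane A2, and a dehydrogenase inactivates prostaglandins. In the airway, prostaglandin E2 and prostacyclin are mainly known as relaxing and restraining signals, while prostaglandin D2 and thromboxane A2 are known as products of mast cells, macrophages and platelets that narrow the airway or draw in leukocytes. The 10 enzyme genes described here are the cyclooxygenases Ptgs1 and Ptgs2, the prostaglandin E synthases Ptges, Ptges2 and Ptges3, the prostacyclin synthase Ptgis, the prostaglandin D synthases Ptgds and Hpgds, the thromboxane synthase Tbxas1 and the dehydrogenase Hpgd. They were found by the gene name that the scanner files give to each probe, which yielded 16 probes of 39410 and 10 genes of 27746.

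The RNA came from bronchial epithelial cells of mice, isolated from lung tissue in an asthma model that uses the antigen ovalbumin (OVA). There were 4 groups: Pla2g3+/+ (wild type) control, Pla2g3+/+ challenged, labelled Pla2g3-/- control, and labelled Pla2g3-/- challenged. Pla2g3 codes for a secreted phospholipase A2, an enzyme class that frees fatty acids such as arachidonic acid from membranes. Per the labels, the schedule was intraperitoneal OVA (10 µg) with alum (1.3 mg) on days 0 and 14, then an aerosol of 1% OVA for 30 min on each of days 26, 27 and 28, and lungs were harvested 3 h later. The treatment of the controls, the age and strain of the mice and the kind of Pla2g3 allele are not given in the labels, so a challenge difference can include sensitisation. Each group is 1 single-colour array with a pool of RNA from 4 samples, so no difference below has a replicate check and none has a p-value of its own. In bulk RNA, fewer cells of a type and less RNA per cell cannot be told apart.

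The 4 arrays shared 1 slide and 1 scan, and between 79.2% and 81.9% of spots were well above background. The labels were checked with Pla2g3, whose probe had an intensity of 239 units on the array of wild-type controls, 254 on the wild-type challenged array, 2023 on the control array labelled Pla2g3-/- and 4154 on the challenged array labelled Pla2g3-/-. The Pla2g3 signal was thus higher, not lower, where the label says the gene is lacking, by 3.19 without and 3.90 with challenge on the log2 scale, and by 2.12 and 4.56 with its second probe. No label says whether these probes lie inside the deleted part, so the groups are called by their labels throughout. Epithelial markers were well above background on all arrays: the summed level of Epcam, Cdh1, Krt8, Krt18 and Krt19, in units of the array's 75th percentile, was 230 and 235 for wild type control and challenged and 215 and 207 for labelled Pla2g3-/-. One array, the control labelled Pla2g3-/-, differed from the rest in the developing T cell genes Rag1, Rag2, Dntt and Ptcra, with a summed level of 16.6 against 0.341 to 0.952 on the other arrays. The wild-type control array differed from the rest in B cell genes, with a summed level of 5.28 against 2.12 to 2.30.

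Intensities below are in scanner units as deposited, before the arrays were scaled to each other. Differences are between 2 arrays, on the scale of the log2 intensity minus that array's 75th percentile, and so can depart a little from the ratio of the units. All 10 genes were well above background on all 4 arrays, as were 15 of the 16 probes. The error beside a difference is the scanner's own error of the signal, which covers the measurement and not the spread between mice. A difference is counted when it is at least 2-fold, which is 1 on the log2 scale.

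Challenge went with higher Ptgs2, Ptgis and Hpgds and with lower Hpgd signal in cells labelled Pla2g3-/-, each at least 2-fold, so that an inducible cyclooxygenase and the synthases of prostacyclin and prostaglandin D2 were higher where the enzyme that inactivates prostaglandins was lower. In wild-type cells no member differed 2-fold with challenge. Ptgis, Hpgds and Hpgd had differences of the same sign there, at 0.52, 0.70 and -0.69. Their 2 challenge differences lay 0.58, 0.47 and -0.31 apart, each ± 0.29 (scanner error), against 2.77 for Ptgs2. The 4 of 10 members past 2-fold in cells labelled Pla2g3-/- stand beside 7.4% of 23034 genes that differed at least 2-fold there, and the 0 of 10 in wild type beside 3.5% of 23355 genes. By direction, 3 members were higher beside 3.93% of all genes, and 1 was lower beside 3.47%. Because of the developing T cell genes on the control labelled Pla2g3-/-, the 4 were also set against the wild-type control array, which gave 1.82 for Ptgs2, 1.33 for Hpgds, -1.25 for Hpgd and 0.70 for Ptgis, so that 3 of the 4 were 2-fold different. Over all genes 1715 of 23166 were 2-fold different in that pair of arrays. The same exchange put Ptgs2 at 1.35 in wild type, where the challenged array was set against the control labelled Pla2g3-/-, so that 1 member of 10 was then 2-fold different there. Beside it stand 1491 of 23320 genes under this exchange, against 817 of 23355 with the wild-type control array. Hpgd, at -1.0, lay on the threshold, and came under 2-fold with normexp background correction (-0.95), quantile normalization (-0.99), centring on the median (-0.93) and averaged probes (-0.99), while Hpgds was at 0.78 with normexp. The median difference over the 10 members was 0.49 in cells labelled Pla2g3-/- and 0.15 in wild type, where the median over all genes was -0.06 and -0.03.

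**Figure D1:**
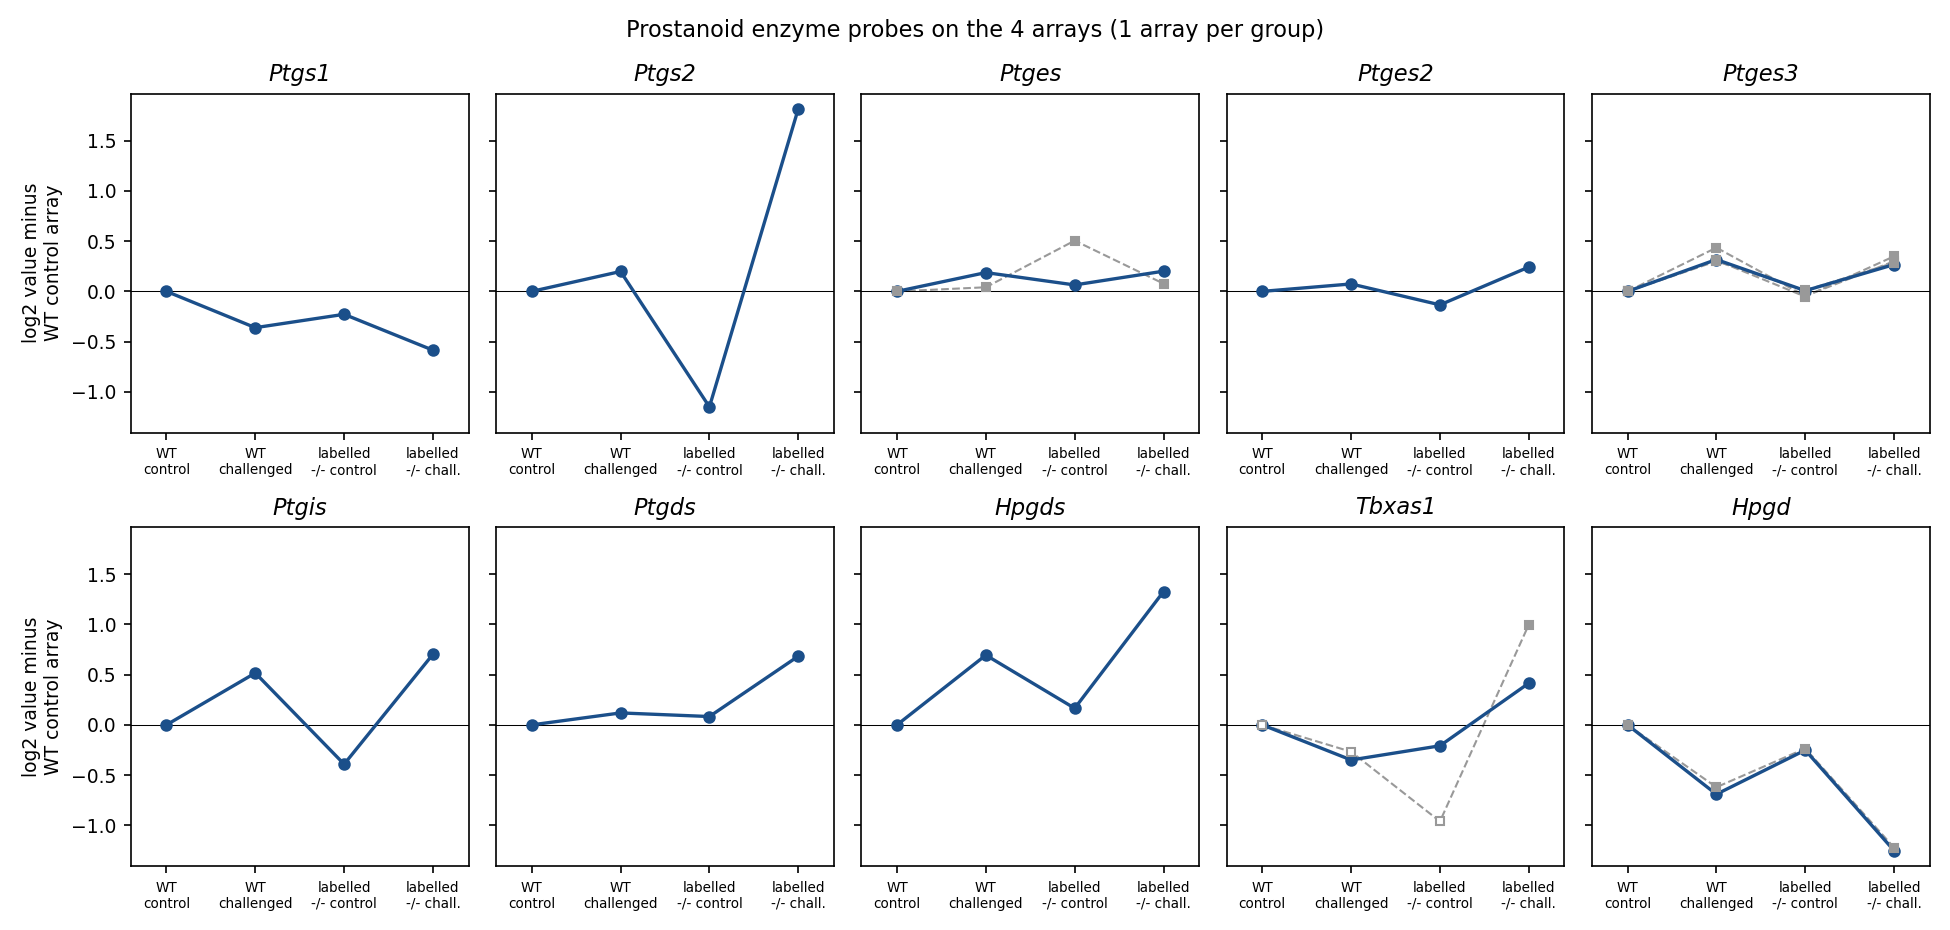
Each panel shows 1 gene, with the log2 value minus that of the wild-type control array on the y axis and the 4 arrays on the x axis. Solid blue lines are the brightest probe of a gene, dashed grey lines its other probes, and open symbols are probes not well above background. Ptgs2 spans 2.96 between its lowest and highest array, Hpgds 1.33, Hpgd 1.25 and Ptgis 1.09, while the brightest probe of Ptges spans 0.20.

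The sequence before the start site of Ptgs2 is shown because this gene had the widest span of the members, and that of Hpgd because it was the member that was lower by 2-fold. Both are the 250 bases before the start site, on the plus strand of GRCm38.p6, from RefSeq, at chr1:150099781-150100030 and chr8:56294302-56294551. Capitals mark the palindrome TTGCGCAA, a binding motif of the C/EBP factors.
Ptgs2 promoter: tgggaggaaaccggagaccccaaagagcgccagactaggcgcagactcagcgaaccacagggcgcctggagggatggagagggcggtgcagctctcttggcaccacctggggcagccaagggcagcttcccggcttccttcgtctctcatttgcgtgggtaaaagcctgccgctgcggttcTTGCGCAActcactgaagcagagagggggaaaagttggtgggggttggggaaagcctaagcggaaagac
Hpgd promoter: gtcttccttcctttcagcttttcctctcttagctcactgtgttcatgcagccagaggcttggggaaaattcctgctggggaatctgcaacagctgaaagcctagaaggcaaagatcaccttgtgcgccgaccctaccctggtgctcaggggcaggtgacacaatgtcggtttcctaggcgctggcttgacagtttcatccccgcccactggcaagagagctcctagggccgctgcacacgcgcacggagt

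Promoter windows of 250 bases before to 50 bases after the start site were found for 9 of the 10 members, all but Ptgis. They were searched on both strands for 6 motifs, and a match describes letters, not binding. TTGCGCAA was in the Ptgs2 window, from 69 to 62 bases before the start site, in no other member's window and in 60 of 32851 windows in all (0.183%). The core TGACG of the cyclic AMP response element was in 20.8% of all windows and in those of Ptgs2 and Ptges3. The E-box CACGTG was in 7.15% of windows and in those of Ptgs2 and Ptges2. In Ptgs2 both lie after the start site that RefSeq gives, at bases 14 to 18 and 17 to 22 counted from it, and overlap each other. All positions here rest on that start site and would shift with another. The AP-1 motif TGANTCA (7.81% of windows) was in those of Ptgds and Tbxas1, the NF-kB motif (8.46%) in those of Ptgds and Ptges3, and TATAAA (13.6%) in those of Hpgd and Tbxas1.

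Ptgs2 codes for the inducible cyclooxygenase, the form that inflammatory signals switch on in many cells. Its intensity was 428 units on the wild-type control array, 448 on the wild-type challenged array, 179 on the control array labelled Pla2g3-/- and 1502 on the challenged array labelled Pla2g3-/-. It was therefore lowest and highest on the 2 arrays labelled Pla2g3-/-, with both wild-type arrays between them. The challenge difference was 2.96 ± 0.20 (scanner error), or 7.80-fold, in cells labelled Pla2g3-/-, the 150th largest in size of 23034 genes. In wild type it was 0.20 ± 0.20. The genotype difference changed direction between the conditions. It was -1.15 ± 0.20 without challenge and 1.62 ± 0.20 with it, that is 2.22-fold lower and 3.07-fold higher in cells labelled Pla2g3-/-.

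The 2 challenge differences of Ptgs2 lay 2.77 ± 0.29 apart, the 104th largest such gap in size of 21572 genes, and with 1 array a group that gap cannot be tested. The lower value of the control labelled Pla2g3-/- enters this gap. The probe lies at chr1:151954744-151954803 on the plus strand of mm9, and it was printed 10 times on each array, of which 8 or 9 spots were used after those marked as outliers were left out. All 10 spots ran from 369.9 to 442.8 units for wild-type control and from 397.5 to 470.0 on the wild-type challenged array, so these 2 ranges overlap. On the arrays labelled Pla2g3-/- they ran from 158.5 to 188.3 units (control) and from 1331 to 1578 (challenged), apart from each other and from both wild-type ranges. The SD between the spots used was 0.03 to 0.04 on the log2 scale, where the median over all probes printed 10 times was 0.07.

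**Figure D2:**
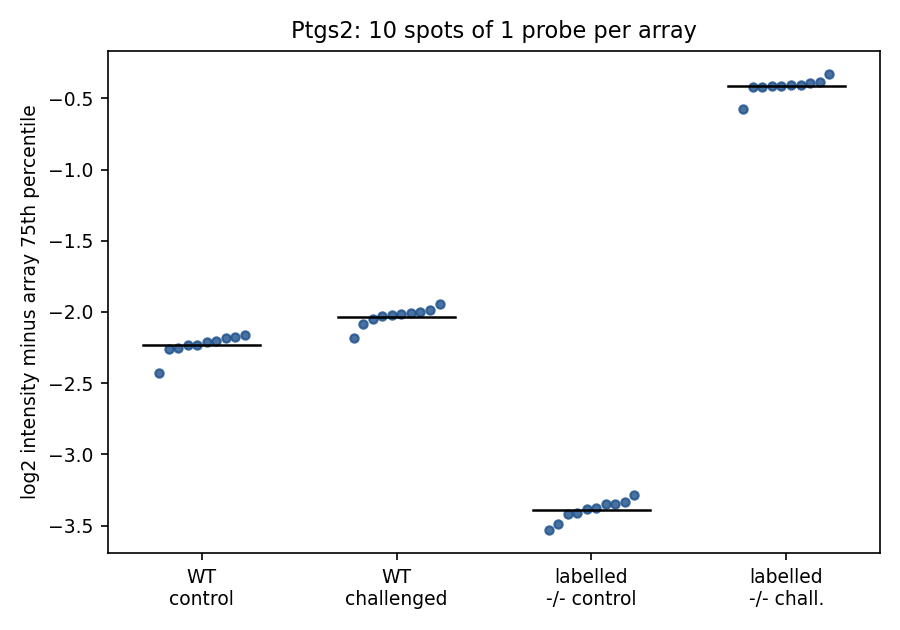
Points are the 10 spots of the Ptgs2 probe on each array, including outlier spots, as log2 intensity minus the array's 75th percentile, and the line is their mean. Spots are repeats of 1 probe on 1 array, not biological replicates. The spots of the challenged array labelled Pla2g3-/- lie above all others and those of the control array labelled Pla2g3-/- below all others.

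Ptgs1, the cyclooxygenase that most tissues express without a stimulus, had slightly lower signal with challenge. Its probe read 3832 units on the wild-type control array, 2715 on the wild-type challenged array, 3023 on the control array labelled Pla2g3-/- and 2546 on the challenged array labelled Pla2g3-/-. Both challenged arrays were below both control arrays. The challenge difference was -0.36 ± 0.20 in each genotype, and the 2 differences lay 0.00 ± 0.29 apart. The genotype differences were -0.23 and -0.22, close to the scanner's error.

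Among the prostaglandin E synthases, no member differed 2-fold in any of the 4 pairs of arrays. Ptges codes for the microsomal form, usually induced along with Ptgs2. Its brightest probe read 35716, 37012, 34506 and 40922 units, in the order wild-type control, wild-type challenged, labelled Pla2g3-/- control and labelled Pla2g3-/- challenged. All 4 pairs differed by less than the scanner's error of 0.20, the challenge differences being 0.19 in wild-type cells and 0.14 in those labelled Pla2g3-/-.

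The second Ptges probe disagreed with the first in cells labelled Pla2g3-/-. The 2 probes start at bases 3583 and 364 of the same transcript, per the scanner files, and the second is shown because the answer for this gene depends on which is read. It lies at chr2:30748214-30748273 on the minus strand of mm9.
Ptges probe: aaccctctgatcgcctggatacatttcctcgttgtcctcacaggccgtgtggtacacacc
This probe read 1652, 1546, 2164 and 1736 units in the same order, with the control array labelled Pla2g3-/- the highest. Its challenge difference was 0.04 in wild-type cells and -0.43 ± 0.20 in those labelled Pla2g3-/-, and the genotype difference without challenge was 0.50 ± 0.20, against 0.07 for the first probe. Neither probe of Ptges showed the challenged array labelled Pla2g3-/- apart from the wild-type challenged array, with differences of 0.01 and 0.04, although Ptgs2 differed 3.07-fold between those arrays.

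Ptges2 codes for a membrane-associated synthase that is expressed without a stimulus. It read 2990, 2866, 2517 and 3523 units in the same order, highest on the challenged array labelled Pla2g3-/-. Its challenge difference was 0.38 ± 0.20 in cells labelled Pla2g3-/- and 0.07 in wild type. Ptges3 codes for the cytosolic synthase p23, also a co-chaperone of Hsp90. Its brightest probe read 34507, 39126, 32035 and 41389 units, with both challenged arrays above both controls, and its challenge differences were 0.32 in wild-type cells and 0.26 in those labelled Pla2g3-/-. The other 3 probes of Ptges3 also read higher on both challenged arrays than on both control arrays. One of these 3 is placed on chromosome 4 by the scanner files and the others on chromosome 10, so its signal may not be that of Ptges3 alone.

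Ptgis codes for prostacyclin synthase, an enzyme best known from endothelium and smooth muscle. It read 1333 units on the wild-type control array, 1734 on the wild-type challenged array, 938 on the control array labelled Pla2g3-/- and 2161 on the challenged array labelled Pla2g3-/-. Both challenged arrays were above both controls, and the array order was that of Ptgs2. The challenge difference was 0.52 ± 0.20 in wild-type cells and 1.09 ± 0.20, or 2.13-fold, in those labelled Pla2g3-/-. Beside this, the 7 endothelial markers (such as Pecam1, Cdh5 and Kdr) had a median challenge difference of 0.68 in cells labelled Pla2g3-/-, 3 of them at least 2-fold higher, and -0.18 in wild type, and of -0.65 between labels without challenge. Their summed levels were 3.25, 2.62, 2.97 and 2.90 in the order wild-type control, wild-type challenged, labelled Pla2g3-/- control and labelled Pla2g3-/- challenged, and Tie1 had no signal well above background for labelled Pla2g3-/- control. Kdr, at 1.52, 1.16, 1.47 and 1.36 on the log2 scale, made up nearly all of these sums. Between labels without challenge Kdr differed by -0.05, and every other endothelial marker by -0.44 to -2.41, the latter a bound for Tie1. The smooth muscle markers had medians of -0.03 and 0.00. The 4 mesothelial markers (Msln, Upk3b, Wt1 and Lrrn4) had a median challenge difference of 0.16 in wild-type cells and of 1.02 in those labelled Pla2g3-/-, 2 of them (Upk3b and Wt1) at least 2-fold higher there, and medians of -0.45 and 0.37 between labels without and with challenge. Their summed level was 87.8, 89.5, 105 and 88.8 in the same order, of which Msln, at 6.45, 6.48, 6.70 and 6.46 on the log2 scale, made up nearly all. The part of these cell types in the Ptgis difference was not tested.

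The prostaglandin D synthases are Hpgds, the form of mast cells, other leukocytes and tuft cells, and Ptgds, the lipocalin-type form best known from brain and heart. The Hpgds probe is shown because this member differed 2-fold and has no second probe to set beside it. It lies at chr6:65073550-65073609 on the minus strand of mm9.
Hpgds probe: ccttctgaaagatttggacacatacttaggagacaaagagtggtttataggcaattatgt
Hpgds read 77.0 units on the wild-type control array, 113 on the wild-type challenged array, 79.8 on the control array labelled Pla2g3-/- and 193 on the challenged array labelled Pla2g3-/-. The 2 control arrays were alike within the scanner's error, and each challenged array was above both. The challenge difference was 0.70 ± 0.21 in wild-type cells and 1.16 ± 0.21, or 2.24-fold, in those labelled Pla2g3-/-, and the genotype difference under challenge was 0.63 ± 0.21. Ptgds read 74.9, 74.1, 73.3 and 120 units in the same order, so 3 arrays were alike and the challenged array labelled Pla2g3-/- was above them. Its challenge difference was 0.60 ± 0.21 in cells labelled Pla2g3-/- and 0.12 in wild type.

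Both signals were well above background yet low, beside a local background of 25 to 25.5 units in the median, and depended on how background was treated. With normexp background correction the challenge difference in cells labelled Pla2g3-/- was 0.78 for Hpgds, under 2-fold, and 0.34 for Ptgds. Mast cells are known for Hpgds, and of the 8 measured mast cell markers (such as Cpa3, Cma1 and Kit) 0 differed 2-fold in either challenge comparison, with medians of 0.02 in wild-type cells and -0.16 in those labelled Pla2g3-/-, and Ms4a2 was not above background on any array. Summed over all 9, Ms4a2 included, the level was 15.5, 15.6, 15.9 and 18.3 in the order used above. Most of it was Hdc, histidine decarboxylase, which other leukocytes also make, at 3.54, 3.56, 3.61 and 3.93 on the log2 scale. In cells labelled Pla2g3-/-, Cpa3, Mcpt4, Cma1, Tpsb2 and Fcer1a had challenge differences of -0.43, -0.76, -0.27, -0.21 and -0.11. Those of Hdc, Tpsab1 and Kit were 0.33, 0.06 and 0.03. The 5 markers of type 2 T cells and innate lymphoid cells (Il4, Il5, Il13, Gata3 and Il1rl1) had median challenge differences of 0.54 in wild-type cells and 2.02 in those labelled Pla2g3-/-, with Il5 and Il13 at their bounds. Of these 5, 2 were at least 2-fold higher in wild type, and 3 were higher and 1, Gata3 at -2.35, lower in cells labelled Pla2g3-/-. Il5 and Il13, the cytokines that define these cells, had no signal well above background on either control array and were higher on the challenged arrays by at least 2.76 and 2.19 in wild-type cells and at least 5.18 and 4.68 in those labelled Pla2g3-/-. The summed level of all 5 was 0.439, 0.517, 0.934 and 0.816. Most of it on the control labelled Pla2g3-/-, the array with the developing T cell genes, was Gata3. On the log2 scale Gata3 was at -3.79, -3.89, -0.71 and -3.06 in the same order. The 6 tuft cell markers (such as Trpm5, Dclk1 and Avil) had a summed level of 0.629, 0.591, 0.757 and 0.982, with a median challenge difference of 0.20 in cells labelled Pla2g3-/- and -0.17 in wild type. The 5 dendritic cell markers had a summed level of 0.561, 0.618, 0.497 and 1.25, and the 4 of them that were measured had medians of 0.96 in cells labelled Pla2g3-/- and 0.00 in wild type. The 2 eosinophil markers with a value (Prg2 and Ccr3) had medians of -0.57 and -0.92 in that order, and Epx was not above background on any array. The 2 basophil markers (Mcpt8 and Prss34) had medians of 0.13 and 0.23. The part of these cell types in the Hpgds and Ptgds differences was not tested.

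Tbxas1 codes for thromboxane synthase, best known from platelets and macrophages, and was the member whose 2 challenge differences had opposite signs. Its main probe read 337 units on the wild-type control array, 241 on the wild-type challenged array, 270 on the control array labelled Pla2g3-/- and 448 on the challenged array labelled Pla2g3-/-. The challenged array of wild type was thus the lowest and that of cells labelled Pla2g3-/- the highest. The challenge difference was -0.35 ± 0.20 in wild-type cells and 0.62 ± 0.20 in those labelled Pla2g3-/-, and the genotype difference under challenge was 0.76 ± 0.20, or 1.70-fold. With the mean of both probes, which takes in the second probe below, the challenge difference in cells labelled Pla2g3-/- was 1.29 and the genotype difference under challenge 1.01, both past 2-fold. That second probe, designed on a cDNA clone, was well above background only on the challenged array labelled Pla2g3-/-, at 21.6 units, which puts it at least 2.28-fold above the control array of the same label and at least 2.40-fold above the wild-type challenged array. These bounds set its mean against the higher of the other array's own value and that array's lowest signal well above background.

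The markers of the cell types that hold thromboxane synthase had their highest summed level on the same array. For 8 macrophage markers (such as Adgre1, Cd68 and Marco) it was 11.7, 15.2, 19.7 and 27.1 in the order wild-type control, wild-type challenged, labelled Pla2g3-/- control and labelled Pla2g3-/- challenged, and their median difference with challenge was -0.19 in wild-type cells and 0.69 in those labelled Pla2g3-/-. Chil3, at 0.55, 3.03, 3.35 and 3.74 on the log2 scale, made up a large part of that sum on all but the first of these arrays. Its challenge differences were 2.48 in wild-type cells and 0.39 in those labelled Pla2g3-/-, where those of Marco were -2.01 and 1.94. Mertk, at -0.67 and -0.99, was lower with challenge in both, while every other marker of the 8 was higher in cells labelled Pla2g3-/-. For 6 platelet and megakaryocyte markers the summed level was 1.31, 1.17, 1.5 and 2.47, with medians of 0.06 and 0.69. In cells labelled Pla2g3-/-, Ppbp, Pf4, Gp9, Itga2b, Treml1 and Gp1ba had challenge differences of 1.17, 1.0, 0.88, 0.51, 0.2 and -0.29. The 6 neutrophil markers had medians of 1.71 and 2.73 and summed levels of 58.2, 63.2, 45.8 and 89.0. Csf3r, the receptor of a granulocyte growth factor, made up most of that sum on all but the last of these arrays, at 5.74, 5.57, 5.22 and 5.03 on the log2 scale, and without challenge it was lower (-0.52) and the other 5 markers were 0.36 to 1.07 higher in cells labelled Pla2g3-/- than in wild type. Their part in the differences of Tbxas1 and Ptgs2, both also made by leukocytes, was not tested.

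Hpgd codes for 15-hydroxyprostaglandin dehydrogenase, the enzyme that starts the breakdown of prostaglandins and for which lung is a main site. Its brighter probe read 4957 units on the wild-type control array, 2797 on the wild-type challenged array, 3850 on the control array labelled Pla2g3-/- and 2075 on the challenged array labelled Pla2g3-/-. Both challenged arrays were below both controls. The challenge difference was -0.69 ± 0.20 in wild-type cells and -1.0 ± 0.20, or 2.0-fold lower, in those labelled Pla2g3-/-, the latter lying at the 2-fold threshold itself. The second probe gave -0.62 and -0.99, so the 2 probes agree within the scanner's error and lie on either side of the threshold. The genotype difference was -0.25 without and -0.56 ± 0.20 with challenge. Only 3.7% of all genes in wild-type cells and 3.5% in those labelled Pla2g3-/- had a lower challenge difference than Hpgd. Beside it, the 5 general epithelial markers had median challenge differences of 0.04 in wild-type cells and -0.01 in those labelled Pla2g3-/-, and the 4 club cell markers of 0.05 and -0.22. The 5 alveolar type 2 markers had medians of 0.13 and 0.02. Of these, Sftpb was lower with challenge, at -0.75 and -1.32, and the others ran from 0.04 to 0.67 and from -0.04 to 0.45. The part of these cell types in the Hpgd difference was not tested.

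**Figure D3:**
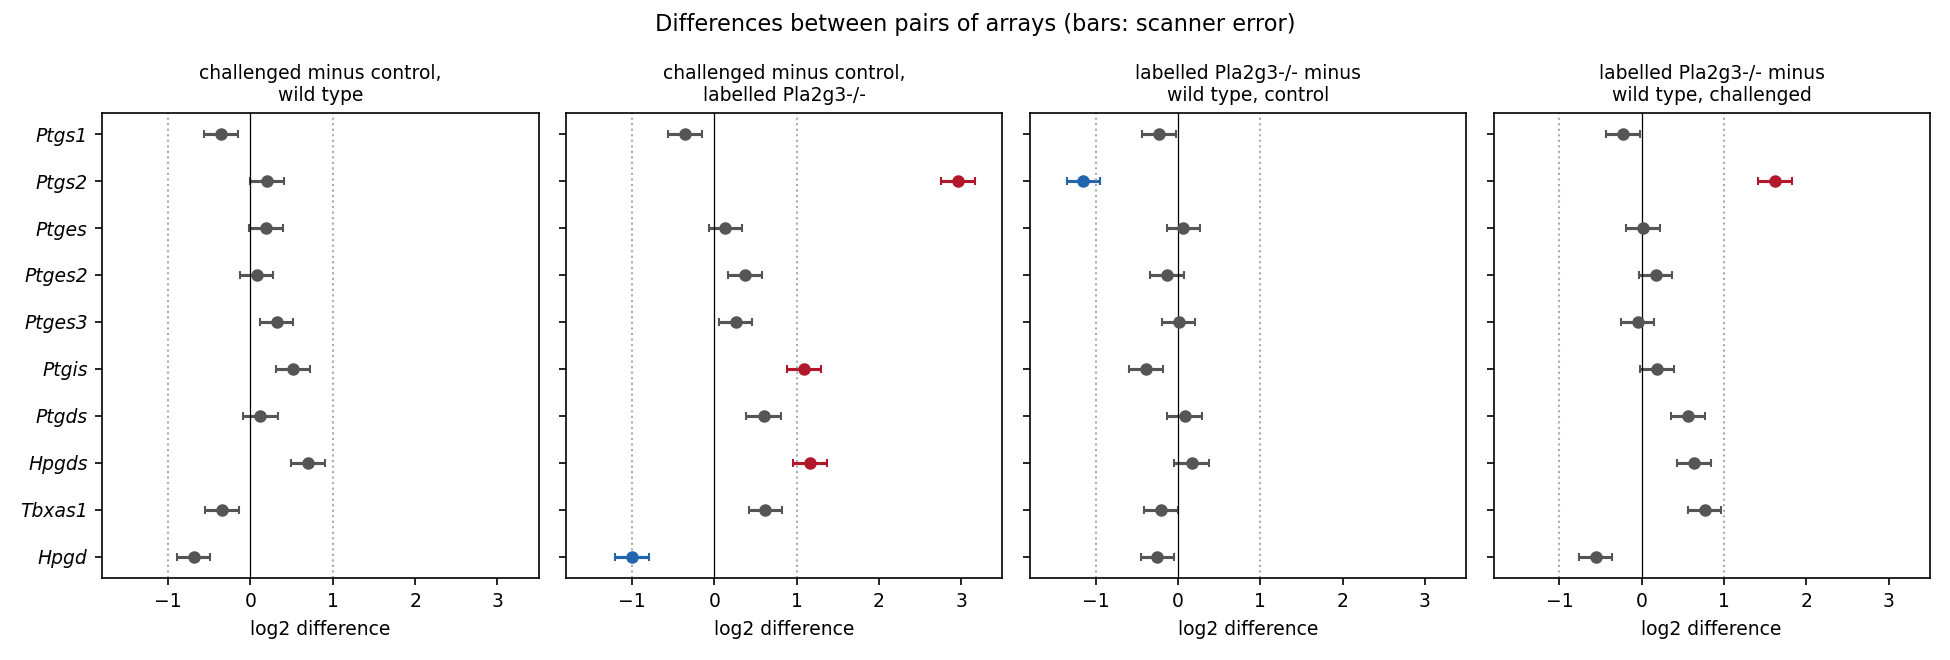
Points are the log2 differences of the 10 genes in the 4 pairs of arrays, and bars are the scanner's error of each difference. Dotted lines mark 2-fold, and red and blue points are genes at least 2-fold higher and lower. Ptgs2 is past 2-fold in 3 of the 4 panels, while Ptgis, Hpgds and Hpgd are past it in the challenge comparison of cells labelled Pla2g3-/-.

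Between genotypes, Ptgs2 was the 1 member of 10 with a 2-fold difference, lower without challenge beside 1.81% of 23221 genes that were lower, and higher with challenge beside 3.90% of 23144 genes that were higher. In either direction these shares were 5.07% and 6.37%. With normexp background correction 0 members were past 2-fold without challenge (Ptgs2 at -0.92), beside 453 of 23108 genes. With averaged probes 2 were past it with challenge (Ptgs2 and Tbxas1, the latter at 1.01), beside 1396 of 23053 genes. Of the 2 Tbxas1 probes averaged, 1 was not well above background on the wild-type challenged array. The members' median genotype difference was -0.17 without and 0.18 with challenge, against -0.03 and -0.05 over all genes. These comparisons share arrays with the challenge comparisons, so they are not separate evidence. The gap between the 2 challenge differences was 2-fold or more for 1 of 10 members, Ptgs2, beside 5.56% of all genes in either direction and 2.84% in the direction of Ptgs2, and was 0.97 for Tbxas1.

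**Figure D4:**
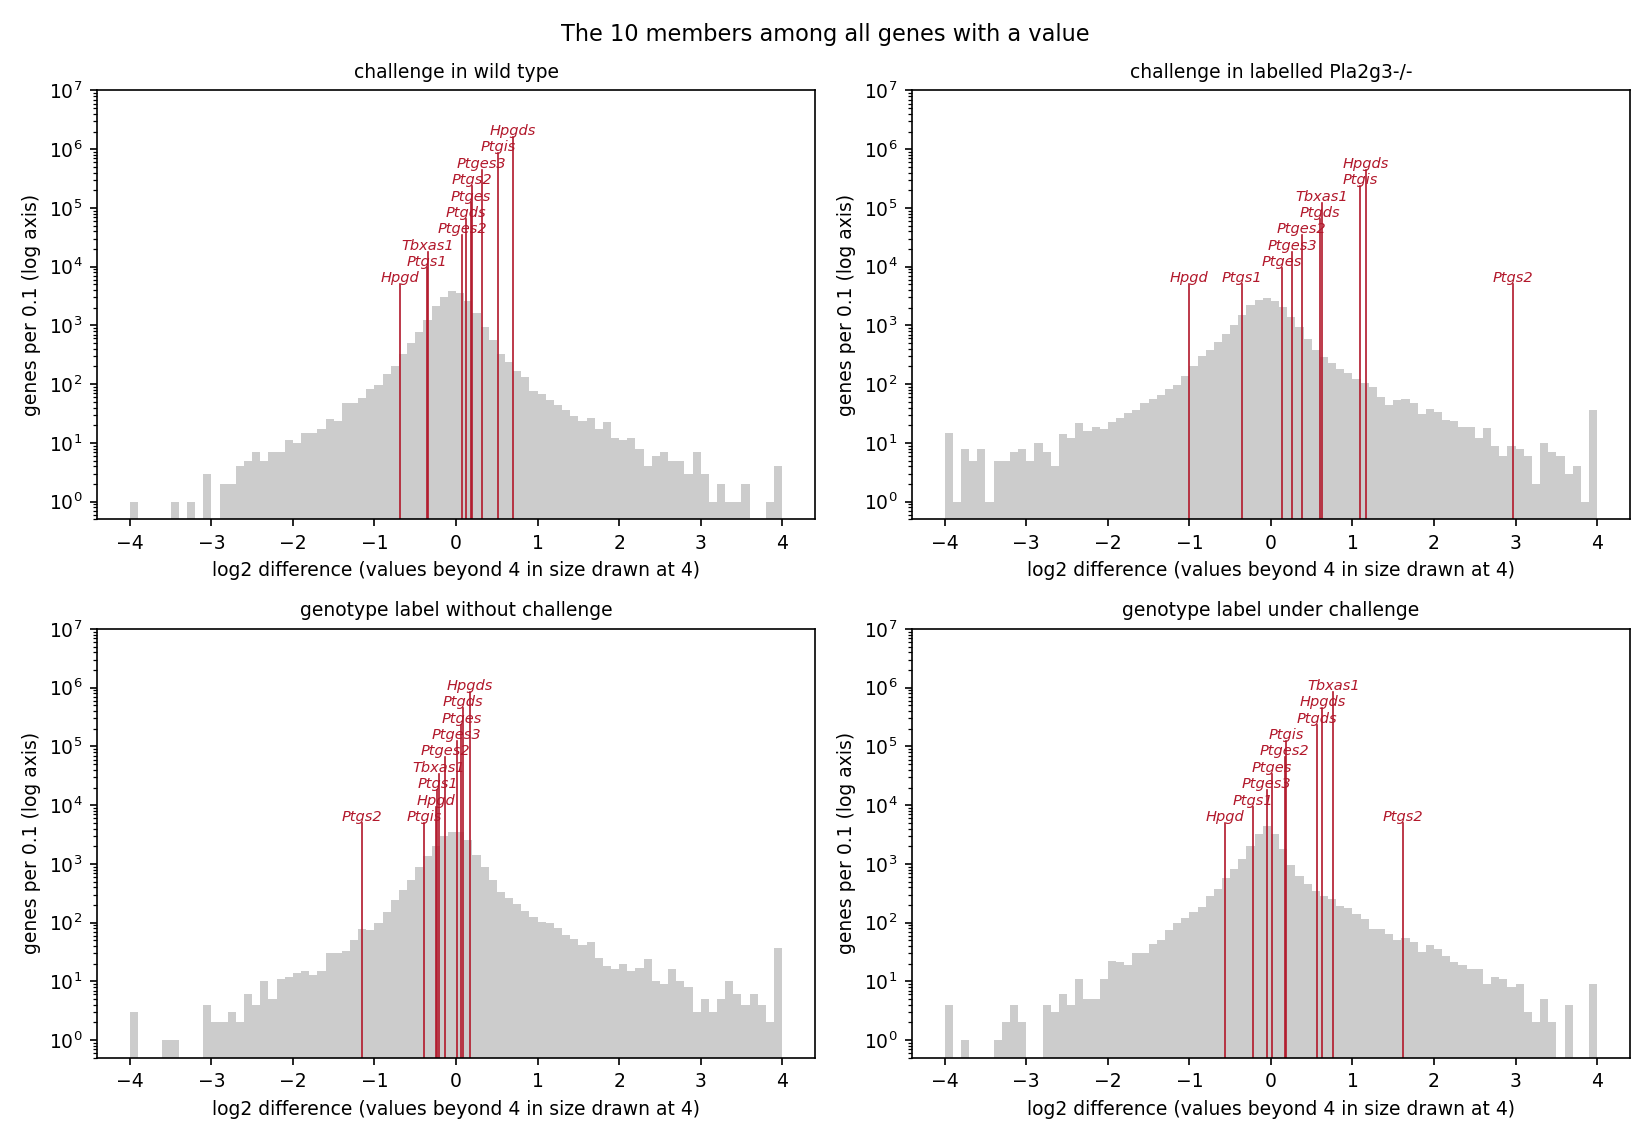
Grey bars count all genes by their log2 difference in each pair of arrays, on a log axis, and red lines mark the 10 members, with line height set only so that names can be read. In the challenge comparison of cells labelled Pla2g3-/-, 99.6% of genes lie below Ptgs2 and 3.5% below Hpgd, and in wild type the members lie between -0.69 and 0.70.

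Over the 4 arrays, 7 of 10 members had their highest value on the challenged array labelled Pla2g3-/- (all but Ptgs1, Ptges3 and Hpgd), beside 21.2% of the 21572 genes well above background on all arrays. For Ptges, Ptges2 and Ptgis the lead over the wild-type challenged array was 0.01 to 0.19, less than the scanner's error. Ptgs1 and Hpgd were highest on the wild-type control array, as were 29.6% of genes, and lowest on the challenged array labelled Pla2g3-/-, as were 38.4%. The 2 challenge differences had the same sign in 9 of 10 members beside 64.7% of genes, and were of the same sign and larger in size in cells labelled Pla2g3-/- in 6 of 10 beside 41.2%. These patterns were chosen after the values were seen. The highest and the lowest array lay at least 2-fold apart in 4 of 10 members and in 11.9% of all these genes. The members lie apart in the genome, although 5 of 10 (Ptgs1, Ptges, Ptges2, Ptgis and Ptgds) have their probes on chromosome 2 and 2 (Hpgds and Tbxas1) on chromosome 6, and none is on chromosome 11 with Pla2g3.

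One test across arrays was possible, an additive limma fit of challenge and genotype label to all 4 arrays with 1 residual degree of freedom, in which an unequal challenge response counts as error. It called 0 of 10 members for challenge and 0 of 10 for genotype label at an adjusted p of 0.05, beside 0.0232% and 0.0371% of 21572 genes. At an unadjusted p under 0.05 it held 5 members for challenge (Ptgs1, Ptges3, Ptgis, Hpgds and Hpgd) beside 15.7% of genes, and 1 for genotype label (Hpgd) beside 12.4%. The average challenge difference was -0.84 ± 0.12 (SE) for Hpgd, with a limma adjusted p of 0.158 and a range of 0.113 to 0.328 over the alternative settings. For Ptgs2 it was 1.58 ± 0.67, with a limma adjusted p of 0.357, the gap between its 2 challenge differences entering its error. Hpgds (0.93 ± 0.20) and Ptgis (0.81 ± 0.17) had limma adjusted p-values of 0.216 and 0.211.

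The genes closest in pattern to the 4 members with a span of 2-fold or more were found among 16421 genes by the distance between log2 values centred on each gene's mean over the 4 arrays. For Ptgs2 they were Trim30b (distance 0.28), Cd40 (0.30), a costimulatory receptor, and Tnfaip6 (0.45), a hyaluronan-binding protein of inflamed tissue. For Ptgis they were Unc45b (0.05), a myosin chaperone, Spdef (0.07), a transcription factor of goblet cells, and Glipr1 (0.10). For Hpgds they were Tmem229a (0.07), Itlnb (0.10), an intelectin, and Dnajb9 (0.10), a chaperone of the endoplasmic reticulum. For Hpgd, Kcnj13 (0.04), a potassium channel, and Epp13 (0.10) were among them. With 4 points each, these are descriptions.

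Around the enzymes lie the receptors of prostanoids. Of 7 to 8 receptors with a value, 0 differed 2-fold with challenge in wild type, beside 3.5% of all genes, and 3 in cells labelled Pla2g3-/- (2 higher, 1 lower), beside 7.4%. Between labels 3 differed without challenge (2 higher, 1 lower), beside 5.07%, and 4 with it (3 higher, 1 lower), beside 6.37%. Their medians were -0.20, -0.12, 0.10 and 0.84 in that order, beside -0.03, -0.06, -0.03 and -0.05 over all genes. Tbxa2r, the thromboxane receptor, read 72.1 and 47.8 units on the arrays of wild-type cells (control, challenged) and 403 and 66.5 on those labelled Pla2g3-/-. It was thus high on 1 array, the control labelled Pla2g3-/- on which the developing T cell genes were also high, and the part of those cells was not tested. Ptger1, a prostaglandin E2 receptor, read 35.7, 34.7, 172 and 161 units in the same order and so followed the label, with differences of 2.39 and 2.09. Ptgir, the prostacyclin receptor, read 41.0, 19.6, 40.7 and 71.7 units, lowest and highest on the 2 challenged arrays. Ptger3, another prostaglandin E2 receptor, was well above background only on the challenged array labelled Pla2g3-/-, at 27.7 units, and Ptgdr2, a prostaglandin D2 receptor of type 2 leukocytes, on none. Named after their values were seen, the other receptors behind these counts were Ptger2, at 1.11 with challenge in cells labelled Pla2g3-/-, and Ptgdr, at -1.17 and -1.53 between labels without and with challenge.

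Of the other reductases, breakdown enzymes and transporters of prostaglandins (8 genes with a value), 0 were past 2-fold in any of the 4 pairs of arrays. Over all genes the shares were 3.5% and 7.4% with challenge (wild type, labelled Pla2g3-/-) and 5.07% and 6.37% between labels (without and with challenge). The 8 genes had median challenge differences of 0.03 in wild-type cells and -0.11 in those labelled Pla2g3-/-. The largest differences with challenge were for Akr1b8, an aldose reductase family member (0.87 in wild-type cells and 0.61 in those labelled Pla2g3-/-), Prxl2b, a prostaglandin F synthase (-0.18 and -0.80), Ptgr1, which acts after Hpgd in prostaglandin breakdown (-0.46 and -0.69), and Slco2a1, the carrier that brings prostaglandins to Hpgd (-0.31 and -0.54). The last 3, named for their size among the 8 genes, had negative values in both genotypes, as Hpgd had. Of these values, -0.18 is smaller than the scanner's error of 0.20 for Hpgd. No other gene of the 8 had negative values in both, and those of Akr1b8 were positive in both. Among genes well above background on all arrays, 64.7% had 2 challenge differences of the same sign, whether higher or lower. The share with negative values in both was not counted.

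Neighbouring lipid routes were set beside the prostanoid enzymes. Of 9 lipoxygenase and leukotriene genes with a value, 1 differed 2-fold with challenge in each genotype, beside 3.5% of all genes for wild type and 7.4% for the other label. It was Alox12e, an epidermal-type lipoxygenase, at 2.04 in wild-type cells and 2.55 in those labelled Pla2g3-/-. Alox5ap (-0.21 and 0.34), Alox15 (0.43 and 0.86) and Alox5 (0.22 and 0.52), of the leukotriene and 15-lipoxygenase routes, were under 2-fold, and the medians over the 9 were 0.02 and 0.34. Of 12 genes of substrate supply with a value, 2 differed 2-fold with challenge in wild type (1 higher, 1 lower), again beside 3.5%, and 3 in cells labelled Pla2g3-/- (2 higher, 1 lower), beside 7.4%, with medians of -0.04 and 0.01. Pla2g4c, a cytosolic phospholipase A2, had the largest challenge differences, with 17.2 and 255 units on the arrays of wild-type cells (control, challenged) and 186 and 1550 on those labelled Pla2g3-/-, that is 4.03 and 2.95 with challenge. Pla2g2d was lower with challenge in both genotypes (-1.20 and -1.14), and Pla2g5 was 1.02 higher in cells labelled Pla2g3-/- at 17.4 to 38.1 units. Pla2g4a, the main cytosolic source of arachidonic acid for Ptgs2, named after its values were seen, differed by 0.04 at most in any pair.

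**Figure D5:**
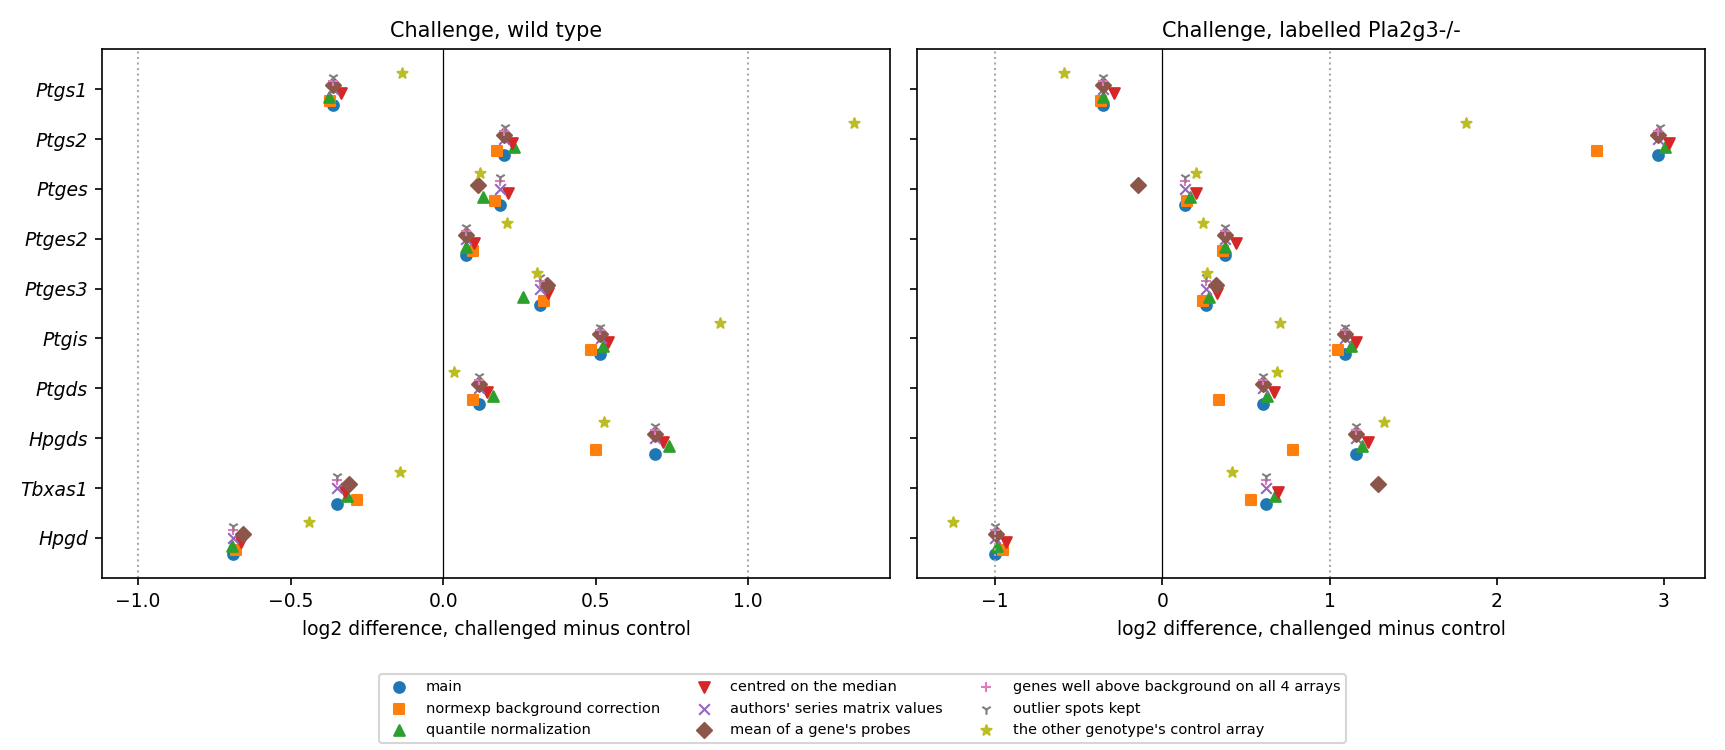
Symbols are the challenge difference of each of the 10 genes under the main setting and each alternative, in wild type (left) and in cells labelled Pla2g3-/- (right), with log2 difference on the x axis and dotted lines at 2-fold. The left and right axes differ in range. Ptgs2 in cells labelled Pla2g3-/- stays between 1.82 and 3.03, and Hpgd in cells labelled Pla2g3-/- lies on both sides of -1.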

How the data were processed

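Deposited for each array is the spot table of Agilent Feature Extraction (version 11.5.1.1), whose processed intensity has the background subtracted, with probes placed on mm9. The version and the mm9 build are per the file headers. The deposited series matrix equals the same intensity divided by each array's 75th percentile, and its column medians were 0.0875 (wild-type control), 0.0879 (labelled Pla2g3-/- control), 0.0860 (wild-type challenged) and 0.0850 (labelled Pla2g3-/- challenged). From the processed signal, log2 values minus the array's 75th percentile were computed for 43020 non-control spots, of which 128 to 155 an array were dropped as outliers and 0 were saturated. Spots of a probe were averaged, and a gene is its brightest probe. Of 39410 probes, 28318 took their symbol through a RefSeq accession (GRCm38.p6 table, names only), 7691 kept the file's gene name and 3401 had none. A pair of arrays gives no value for a gene dim on both and a bound for a gene dim on 1, dim meaning not well above background.

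The named genes are the 10 members, Pla2g3, up to 4 genes of each pathway list with the largest difference in any pair, and the 3 genes nearest in pattern, of which 1 is not reported here. Members, lists and tests were chosen with earlier results of these data known. The only test was limma 3.58.1 in R 4.3.3 (lmFit, eBayes with a trend, Benjamini-Hochberg adjustment), checked on simulated data. The number of arrays limits the precision, and each group holds 1 slide position, so these cannot be told apart. Alternatives were normexp background correction (offset 50), quantile normalization, centring on the median, the deposited matrix, the mean of a gene's probes, genes well above background on all 4 arrays only, outlier spots kept, the other control array, and limma without filter or trend.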

Additional observations from a re-analysis of the deposited data

Results flagged for a closer look

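Tbxas1 was the member whose challenge difference had opposite signs in the 2 genotypes, each beyond the scanner's error of 0.20. It was -0.35 in wild-type cells and 0.62 in those labelled Pla2g3-/-, a gap of 0.97 on the log2 scale. With the mean of its probes, 1 of which was not well above background on 3 arrays, the values were -0.31 and 1.29, a gap of 1.6. With 1 array a group this gap was not tested.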

How the results depend on the processing

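Across the alternatives, 347 of 370 values of single members moved by less than the scanner's error and 23 by more, and 0 of those at least 2-fold different reversed. Part of this agreement was fixed by construction. Keeping only genes well above background on all arrays removes no member, and the deposited matrix is the same intensity divided by a constant per array. Under each of these, 50 of 50 values stayed. Keeping outlier spots bears mainly on Ptgs2, which was printed 10 times on each array. Averaging probes bears only on the 4 members with more than 1 probe. Small differences of Ptges and Ptges3 (at most 0.29 in size) changed sign. With normexp correction, 2 members were 2-fold different with challenge in cells labelled Pla2g3-/- (Ptgs2 and Ptgis) and 0 between labels without challenge, where Ptgs2 was at -0.92. All genes 2-fold different numbered 183 and 694 for challenge in wild type and labelled Pla2g3-/-, 453 and 432 for genotype label without and with challenge, and 555 for the gap between challenge differences, against 817, 1704, 1177, 1475 and 1199, and the share that was higher went from 51.2% to 68.9% for challenge in wild type and from 64.3% to 79.0% between labels without challenge. With the other genotype's control array, 1 member (Ptgs2, 1.35) and 1491 genes (35.4% higher) were 2-fold different with challenge in wild type. With probes of a gene averaged, 4 members were 2-fold different with challenge in cells labelled Pla2g3-/-, beside 1672 of 22945 genes, but Tbxas1 (1.29) in place of Hpgd (-0.99). Between labels under challenge 2 members (Ptgs2 and Tbxas1) were 2-fold different, beside 1396 of 23053 genes. In the gap between challenge differences 2 members were, beside 1274 of 21587 genes. Centring on the median also gave 2 members in that gap, beside 1203 of 21572 genes. With genes well above background on all arrays only, 453 genes were 2-fold different with challenge in wild type and 965 between labels under challenge. Limma called 0 members under every alternative. Over all genes it called 5 for challenge (8 with no filter, 4 with normexp, 0 with no trend) and 8 for genotype label (41 with no filter, 0 with normexp, 4 with quantile normalization, 10 with centring on the median, 1 with the mean of probes and 0 with no trend). Beyond what each alternative changes by its construction, the cause of these shifts was not tested.

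No paired analysis was possible because each group has 1 array. Signal over background limits Hpgds, Ptgds, the second Tbxas1 probe and the receptors.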
